A study of Mus musculus with 6 samples.

Results

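Etv4, Etv5 and Dusp22 are the genes that a name rule found in RNA sequencing data from differentiated progeny of J1, a mouse embryonic stem cell line. The rule took protein-coding genes named Etv4 or Etv5, or named Spry, Spred or Dusp followed by a number. It found 3 genes among the 2031 in the deposited tables. The RefSeq annotation of the mouse build GRCm38.p6 holds 33 protein-coding genes with such names, namely 2 Etv, 4 Spry, 3 Spred and 24 Dusp genes. Every Spry and Spred gene, and 23 of the 24 Dusp genes, were not analysed here, because the deposited tables hold genes that the authors had selected for a difference between their groups. All 3 genes passed the filter on low values, an average of 0.5 FPKM or more across the libraries (FPKM is the count scaled to gene length and library total).

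The control group (NC, 3 libraries) came from J1 cells of strain 129S4/SvJae, differentiated in an ordinary (conventional) incubator. The magnetic-field group (MF, 3 libraries) came from the same line, kept in a static magnetic field incubator. Both groups were driven towards heart muscle as embryoid bodies, cell aggregates formed in hanging drops over 3 days, and the series calls the libraries biological triplicates. The sources used here name no field strength, length of exposure or collection day. All libraries come from the same cell line, so they are no sample of lines or donors, and embryoid bodies are mixtures of cell types. In such bulk samples fewer cells of a type and less RNA per cell cannot be told apart. Library totals recovered from the deposited values ran from 14929232 to 19176383 counts.

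Fibroblast growth factors (FGFs) bind receptor tyrosine kinases and, through RAS and the kinases RAF and MEK, switch on the kinase ERK. Etv4 and Etv5 are ETS-family transcription factors whose transcription is raised by this cascade in many embryonic tissues and in mouse embryonic stem cells, so their RNA is widely used as a readout of FGF-ERK signalling. Sprouty and Spred proteins and the ERK-directed dual-specificity phosphatases dampen the cascade in return. Dusp22 carries a Dusp name but is an atypical phosphatase that lacks the kinase-docking domain of that group, and it is known for acting on the kinase JNK and, in T cells, on the kinase Lck. The set analysed therefore holds the ETS readouts, and no gene established as ERK feedback.

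Start-site sequences of Etv5 and Dusp22 are shown because Etv5 was lower and Dusp22 higher in MF, and because Capicua, a repressor that ERK signalling relieves, is known in human cells to bind ETV5. Windows run from 250 bases before to 30 bases after a start site, from RefSeq (GRCm38.p6), and 2 of the 3 genes, Etv5 and Dusp22, matched that table. Capitals mark GGAAGT, an ETS core, and TGAATG, the core of the Capicua motif, on either strand.
Etv5 upstream start, chr16:22439541-22439820, minus strand: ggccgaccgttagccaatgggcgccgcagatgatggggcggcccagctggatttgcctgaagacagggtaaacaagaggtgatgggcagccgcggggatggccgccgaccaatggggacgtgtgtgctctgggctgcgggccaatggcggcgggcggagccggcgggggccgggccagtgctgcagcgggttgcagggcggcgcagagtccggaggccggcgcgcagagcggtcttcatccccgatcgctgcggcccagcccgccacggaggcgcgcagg
Etv5 downstream start, chr16:22438339-22438618, minus strand: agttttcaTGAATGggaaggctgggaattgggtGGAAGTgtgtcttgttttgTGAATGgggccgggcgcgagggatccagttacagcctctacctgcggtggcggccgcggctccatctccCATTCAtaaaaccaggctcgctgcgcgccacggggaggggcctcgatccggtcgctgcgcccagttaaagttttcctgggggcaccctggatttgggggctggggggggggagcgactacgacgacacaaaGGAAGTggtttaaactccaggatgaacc
Dusp22 start, chr13:30659809-30660088, plus strand: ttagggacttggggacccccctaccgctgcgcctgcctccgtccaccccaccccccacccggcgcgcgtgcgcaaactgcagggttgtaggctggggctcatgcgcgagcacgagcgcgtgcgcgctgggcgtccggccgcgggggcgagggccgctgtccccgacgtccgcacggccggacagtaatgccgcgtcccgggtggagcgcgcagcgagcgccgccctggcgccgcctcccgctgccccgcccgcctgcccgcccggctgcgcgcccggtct
The downstream Etv5 window held GGAAGT at positions -217 and 3 from the start site. It held TGAATG at -242, at -198 and, on the other strand, at -129. None of these matches overlapped another. GGAAGT occurred in 22.3% and TGAATG in 12.1% of 32817 mouse windows of the same length, counting both strands. The upstream Etv5 window and the Dusp22 window held neither word. The longer words CCGGAAGT (in 3.72% of windows), TGAATGAA (1.25%), TGAATGGA (1.14%) and TGACGTCA (1.74%) were in none of the 3 windows. The first contains GGAAGT, and the second and the third, which contain TGAATG, are octamers of the Capicua motif. The core matches in the downstream Etv5 window were therefore not matches to these octamers. The words were chosen with the sequences in view. GC content was 72.9% in the upstream Etv5 window, 60.0% in the downstream Etv5 window and 78.6% in the Dusp22 window, against a median of 52.5% over all windows. A match describes the letters only.

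Etv4, also known as Pea3, was lower in every MF library than in any NC library. It lies on chromosome 11 from 101769742 to 101785371 on the minus strand of mm10, and its longest coding transcript in GENCODE M21, an annotation of the same build with the same gene limits, has 13 exons, 1458 coding bases and 937 untranslated bases. Etv4 stood at 13.6, 16.6 and 9.71 FPKM in NC replicates 1, 2 and 3 and at 3.61, 6.17 and 3.25 FPKM in MF replicates 1, 2 and 3. NC replicate 2 was the highest NC library and MF replicate 2 the highest MF library, and the gap between the groups lay between 6.17 and 9.71 FPKM. These values rest on 450 to 828 counts per NC library and 164 to 322 per MF library, and their counting error was at most 7.81%. The exact 95% Poisson intervals of the nearest libraries, 5.52 to 6.89 FPKM in MF replicate 2 and 8.83 to 10.7 FPKM in NC replicate 3, did not meet; they cover counting error only.

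Etv4 fell 3.06-fold, from 13.3 ± 3.43 FPKM in NC to 4.34 ± 1.60 FPKM in MF (SD, n = 3), a log2 fold change of -1.61 (SE 0.43; quasi-likelihood test of edgeR, Benjamini-Hochberg adjusted p over 1651 genes 0.0199). That test called 97.5% of the genes tested, 62.1% as higher and 35.4% as lower, since the table had been selected for such differences, so a call of 3 of 3 genes is no more than this background. The groups did not overlap for 92.5% of the tested genes either. "Rose" and "fell" are used below for genes past this threshold, which does not control errors over the genome. When p-values were adjusted over 19069 tests, the number that the authors' adjusted p-values imply, edgeR called 0 genes or 0.0% (1613 had an unadjusted p under 0.05). With the replicate number as a block, a pairing that no label states, it then called 504 genes or 30.5%. Etv4 (edgeR adjusted p = 0.0325) and Etv5 (0.0282) were among them, but not Dusp22 (0.0704). DESeq2 with the authors' size factors called 606 genes or 36.7% over the 19069 tests, Etv4 (0.0164) among them, but neither Etv5 (0.0648) nor Dusp22 (0.087). In the authors' deposited table the adjusted p-values are 0.000214 for Etv4, 0.00488 for Etv5 and 0.00261 for Dusp22.

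Etv5, also known as Erm, had the highest mean level of the 3 genes in each group and the same direction as Etv4, although Dusp22 was higher than Etv5 in MF replicates 1 and 3. It lies on chromosome 16 from 22381309 to 22439719 on the minus strand of mm10, and its longest coding transcript has 13 exons, 1584 coding bases and 2189 untranslated bases. Etv5 stood at 39.7, 67.2 and 30.4 FPKM in NC replicates 1, 2 and 3 and at 9.66, 24.9 and 10.9 FPKM in MF replicates 1, 2 and 3. The groups did not overlap, but MF replicate 2 came close to NC replicate 3, and NC replicate 2 stood well above the other NC libraries. The 95% counting interval of MF replicate 2, 23.7 to 26.1 FPKM, ended below that of NC replicate 3, 29.0 to 31.8 FPKM. Etv5 fell 3.02-fold, from 45.7 ± 19.1 to 15.1 ± 8.45 FPKM (SD, n = 3), a log2 fold change of -1.60 (SE 0.50; edgeR adjusted p = 0.0248).

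Dusp22 went the other way. It lies on chromosome 13 from 30659999 to 30711231 on the plus strand of mm10, and its longest coding transcript has 7 exons, 615 coding bases and 2400 untranslated bases. Dusp22 stood at 6.01, 3.20 and 4.92 FPKM in NC replicates 1, 2 and 3 and at 10.1, 9.39 and 11.6 FPKM in MF replicates 1, 2 and 3. The MF libraries lay close together and all above the NC libraries, and NC replicate 2 was the lowest library. Dusp22 rose 2.20-fold, from 4.71 ± 1.42 to 10.4 ± 1.10 FPKM (SD, n = 3), a log2 fold change of 1.14 (SE 0.39; edgeR adjusted p = 0.0283). Its coefficient of variation was 30.2% in NC and 10.7% in MF, against medians of 38.7% and 36.7% over all tested genes. Etv4 varied by 25.8% and 36.7%, and Etv5 by 41.8% and 55.9%.

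**Figure D1:**
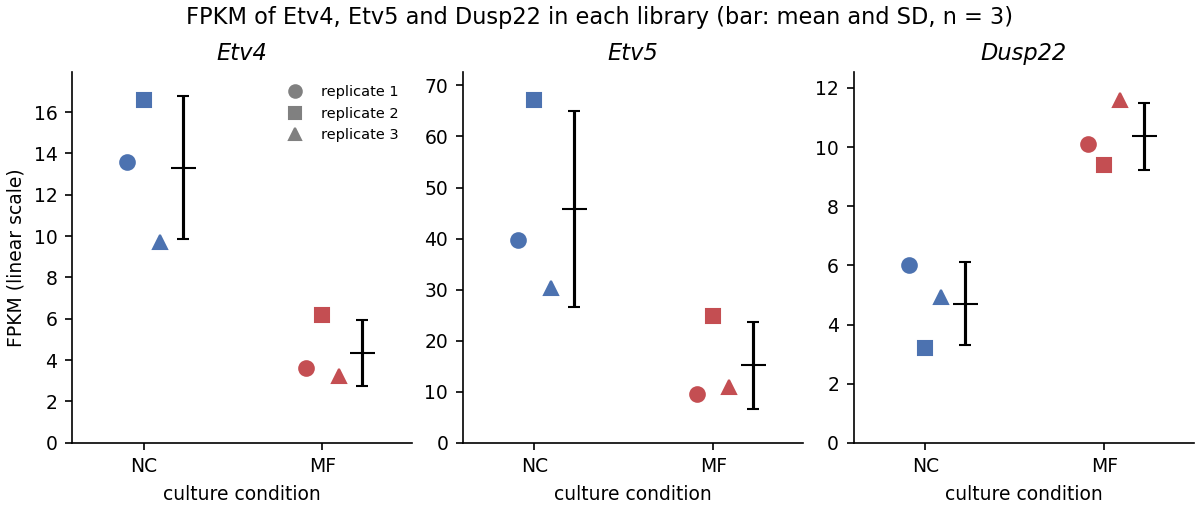
FPKM of Etv4, Etv5 and Dusp22 (linear axes from 0) in the NC and MF libraries, with a symbol for each replicate number and a bar for the mean and SD (n = 3). MF libraries of Etv4 (3.25 to 6.17 FPKM) and Etv5 (9.66 to 24.9 FPKM) lie below all NC libraries, and those of Dusp22 (9.39 to 11.6 FPKM) above them.

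These calls depended on which libraries were included. Leaving out a library also lowers the number of libraries, so a lost call does not show that this library alone carried it. No direction could change this way, since the groups did not overlap. The Etv4 call was lost without MF replicate 1 (edgeR adjusted p = 0.0565) and without MF replicate 3 (0.0875). The Etv5 call was lost without NC replicate 2 (0.0569), MF replicate 1 (0.0709) or MF replicate 3 (0.0960). The Dusp22 call was kept without MF replicate 2 (0.0167) and lost without any other single library (0.0539 to 0.0988). Over all tested genes the share called was 38.8%, 44.5% and 61.3% without NC replicate 1, 2 or 3 and 27.1%, 95.6% and 0.727% without MF replicate 1, 2 or 3. Leaving out MF replicate 2 took the log2 fold change of Etv4 to -1.95 and that of Etv5 to -2.16. Without both libraries numbered 2, edgeR called 1609 of the 1651 tested genes, Etv4, Etv5 and Dusp22 among them. The edgeR adjusted p-values of these genes were then 0.000195, 7.67e-05 and 0.00184. With edgeR's TMM factors and with DESeq2's own size factors, which are computed on the selected genes, the median log2 fold change of all tested genes shifted by -0.70 and -1.06, and Dusp22 at 0.46 and 0.12 was not called (adjusted p = 0.196 and 0.776) where 53.3% and 52.2% of all tested genes were. Relative to those shifts Dusp22 stood at 1.16 and 1.18, Etv4 at -1.60 and -1.56, and Etv5 at -1.59 and -1.53. A change of scaling moves all genes by nearly the same amount. These relative values therefore lie near the reported fit by construction and are no test of it.

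**Figure D2:**
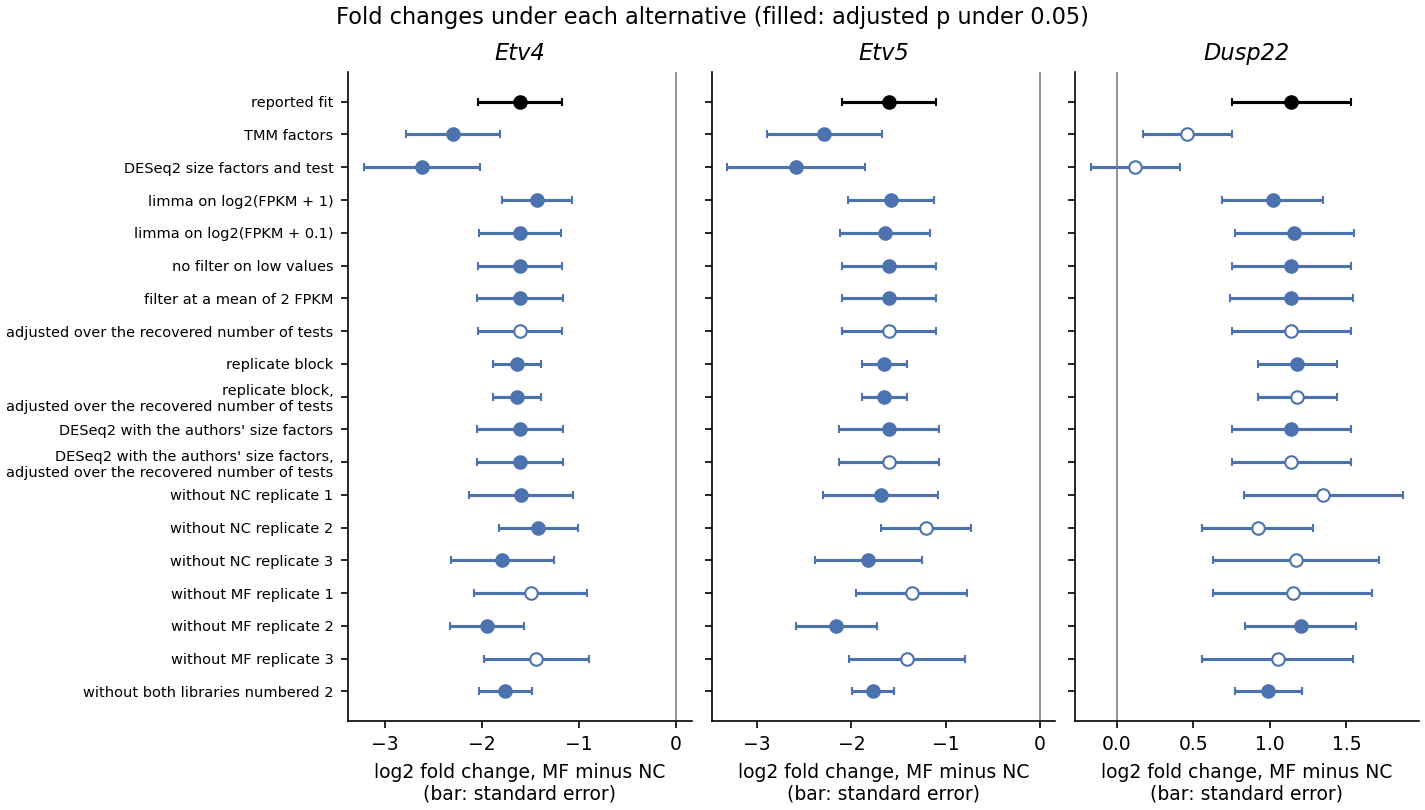
Log2 fold change of MF minus NC with its standard error for Etv4, Etv5 and Dusp22 in the reported fit and under each alternative; filled symbols have an adjusted p under 0.05. Values run from -2.62 to -1.42 for Etv4, from -2.59 to -1.21 for Etv5 and from 0.12 to 1.35 for Dusp22, and open symbols mark the settings that lost the call.

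Etv4 and Etv5 fell by similar amounts, and the proportion between them overlapped between the groups. The ratio of Etv5 to Etv4 FPKM within a library was 2.92, 4.06 and 3.13 in NC replicates 1, 2 and 3 and 2.67, 4.03 and 3.34 in MF replicates 1, 2 and 3. The groups overlapped, with MF replicate 1 below every NC library and NC replicate 2 above every MF library, and the replicate 2 libraries had the highest ratio in each. The mean ratio was 3.37 ± 0.604 in NC and 3.35 ± 0.676 in MF (SD, n = 3), a log2 difference of -0.01 (exact two-sided permutation p = 0.9; adjusted over 3 ratios 0.9). Across the pairs of an MF with an NC library the log2 difference ran from -0.60 to 0.46. The longest identical run between any GENCODE transcripts of these related genes was 23 bases, between Etv4 and Etv5.

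The ratio of Etv5 to Dusp22 FPKM was 6.60, 21.0 and 6.17 in NC replicates 1, 2 and 3 and 0.956, 2.65 and 0.939 in MF replicates 1, 2 and 3. The ratio of Etv4 to Dusp22 had a mean of 3.14 ± 1.77 in NC and 0.432 ± 0.199 in MF (SD, n = 3). Neither ratio could overlap between groups, because the groups were already apart for each gene, in opposite directions. The exact permutation p of each was thereby fixed at 0.1, the smallest that 3 against 3 libraries allow (0.15 adjusted over 3 ratios). These 2 ratios therefore add no test to those of the single genes. By FPKM the order in NC was Etv5, Etv4 and Dusp22, with no overlap between neighbours. In MF Etv5 (9.66 to 24.9) and Dusp22 (9.39 to 11.6) overlapped, and Etv4 (3.25 to 6.17) was lowest.

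**Figure D3:**
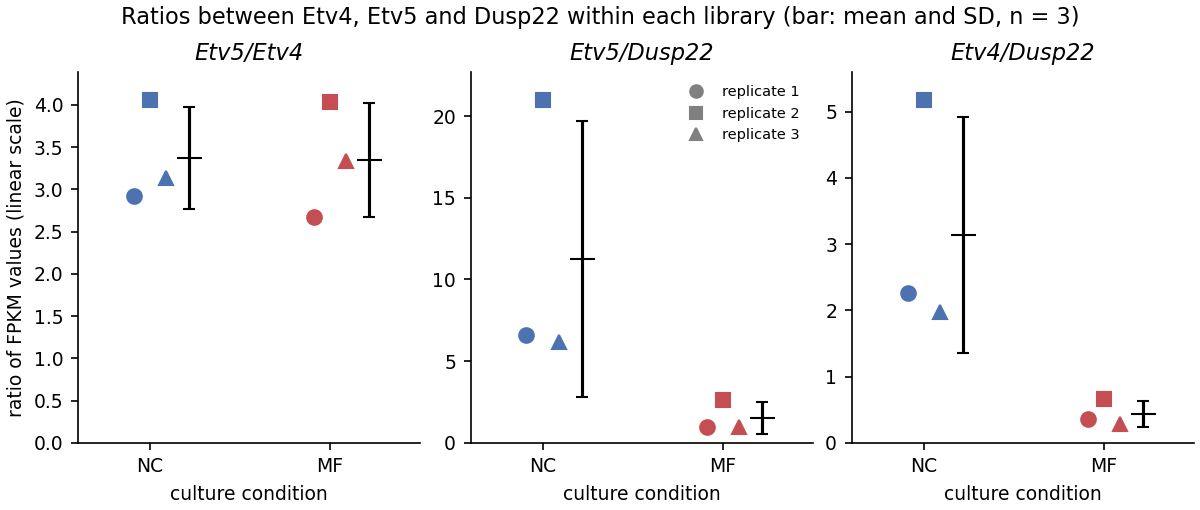
Ratio of FPKM values between Etv5 and Etv4, Etv5 and Dusp22, and Etv4 and Dusp22 within each library (linear axes from 0), with a symbol for each replicate number and a bar for the mean and SD (n = 3). The ratio of Etv5 to Etv4 overlaps between NC (2.92 to 4.06) and MF (2.67 to 4.03), while both ratios to Dusp22 are lower in every MF library.

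Any MF library set against any NC library gives the same directions, because the groups did not overlap for these genes. Libraries with the same replicate number, which no label pairs, are compared here for the size of the difference. From NC to MF, Etv4 differed 3.76, 2.68 and 2.99-fold and Etv5 4.11, 2.70 and 2.80-fold between the libraries numbered 1, 2 and 3. The MF to NC ratio of Dusp22 was 1.68, 2.94 and 2.35. The libraries numbered 2 had the smallest NC to MF ratio for the ETS genes and the largest MF to NC ratio for Dusp22.

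By size of change the 3 genes did not stand near the top of the table, while Etv5 was among its most abundant transcription factors. Among the 599 tested genes lower in MF, whose median log2 fold change was -1.75, Etv4 ranked 331 and Etv5 337 by size of change. Dusp22 ranked 917 among 1052 higher genes, whose median was 1.62. By mean FPKM, Etv5 ranked 8 in NC and 20 in MF among the 189 tested genes that the files give a transcription factor family, and Etv4 ranked 24 in NC and 79 in MF. The files place 4 genes in the ETS family, and the other two, named here after their values were seen, split in direction. Spic, a lineage factor of macrophages, fell 7.55-fold from 1.45 ± 0.896 to 0.191 ± 0.215 FPKM, and Elf4, a regulator of innate immune genes, rose 2.53-fold from 2.48 ± 0.657 to 6.27 ± 2.66 FPKM (SD, n = 3; edgeR adjusted p = 0.0253 and 0.0280). For Spic the difference was 4.91-fold and not called without NC replicate 2 (edgeR adjusted p = 0.0620), and 20.7-fold without MF replicate 2; the call was also lost without MF replicate 1 (0.0509) or MF replicate 3 (0.0935). The Elf4 call was lost without NC replicate 1 or 3 or MF replicate 1 or 3 (edgeR adjusted p = 0.0675 to 0.103).

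Genes whose profile over the 6 libraries was most like that of Etv5 were found by the root-mean-square difference between centred log2(FPKM + 0.1) profiles among 561 other protein-coding genes averaging 5 FPKM or more. The nearest was Apobec3, a cytidine deaminase that restricts retroviruses, at 0.09 log2 units. It stood at 6.41, 12.3 and 4.89 FPKM in NC and 1.62, 4.15 and 2.03 FPKM in MF. Nfatc2ip (0.11), Tex19.1 (0.14), Mybl2 and Sgk1 (0.15 each) followed. Tex19.1 is known for repressing transposable elements in germ and stem cells, Mybl2 is a cell cycle transcription factor, and Sgk1 is a serum-regulated kinase. All 5 were highest in NC replicate 2, as Etv5 was, which follows from choosing them by likeness to its profile. Etv4 ranked 24 in likeness to Etv5, at 0.23 log2 units.

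The nearest genes to Etv4 were Ccdc92 (0.15 log2 units), Rbmxl2 and Rrp9 (0.18 each), Slc35g1 (0.19) and Sall4 (0.20). Sall4, a zinc finger factor of pluripotent cells, stood at 26.5, 36.5 and 24.4 FPKM in NC and 8.06, 16.2 and 9.80 FPKM in MF. Etv5 ranked 17 in likeness to Etv4. For Dusp22 the nearest were Fam102b (0.10), Emp1 and Tdrd7 (0.11 each), Adssl1 and Cd47 (0.12 each). Emp1, an epithelial membrane protein, stood at 17.3, 9.58 and 14.4 FPKM in NC and 31.2, 30.4 and 29.5 FPKM in MF. This ranking for Dusp22 was added after the data were seen. Likeness over 6 libraries in a table selected for a group difference is a description of these profiles.

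Marker genes of several cell types moved with these genes, and their part in the results was not tested. In the reported fit 97.5% of all tested genes were called, so a list called in full is no more than this background. All 7 deposited markers of the 25 listed for pluripotent cells fell; their summed level was 418, 933 and 364 FPKM in NC replicates 1, 2 and 3 and 78.9, 234 and 79.2 FPKM in MF replicates 1, 2 and 3. This sum, like Etv4 and Etv5, was highest in replicate 2 of each group. All 7 deposited germ cell markers of 15 fell as well, from sums of 43.3 to 179 FPKM in NC to 4.76 to 17.5 FPKM in MF. The 16 deposited cardiomyocyte markers of 20 summed to 40.4 to 89.5 FPKM in NC and 169 to 794 FPKM in MF, and all 14 tested rose. The 15 deposited fibroblast and mesenchyme markers of 17 rose, with sums of 198 to 364 FPKM in NC and 341 to 1573 FPKM in MF. Of 13 endothelial markers 7 were deposited, 6 rising and Pecam1 falling, with sums of 15.0 to 45.4 FPKM in NC and 27.7 to 51.8 FPKM in MF. Pecam1 stood at 8.43, 38.2 and 8.75 FPKM in NC replicates 1, 2 and 3, and without NC replicate 2 its difference was 1.28-fold and not called (edgeR adjusted p = 0.339); the call was also lost without MF replicate 1, 2 or 3 (0.0639 to 0.116). Both deposited endoderm markers of 12 rose, from sums of 2.09 to 6.02 FPKM to 10.4 to 29.4 FPKM. The groups overlapped for the endoderm marker Gata6, at 2.93 FPKM in NC replicate 2 and 2.19 FPKM in MF replicate 2. They also overlapped for Myh7, Actn2, Myl7, Col1a1, Col1a2, Col5a1, Fbln1, Fn1 and Flt1 among the rising markers above. Of 12 neural markers Dcx alone was deposited, at 0 counts in NC replicate 2 and up to 1.62 FPKM in MF replicate 2, and none of the 11 blood markers was analysed here. The cardiomyocyte marker Pln and the mesenchyme marker Lum had 0 counts in at least 1 NC library. Without MF replicate 3, where 0.727% of all tested genes were called, edgeR called 3 of the 14 cardiomyocyte markers and 0 of the 15 mesenchyme, 7 pluripotent, 7 germ cell, 7 endothelial and 2 endoderm markers (12, 5, 4, 5 and 2 had an unadjusted p under 0.05). Without NC replicate 2, where 44.5% of all tested genes were called, it called 3 of the 7 pluripotent and 3 of the 7 germ cell markers. With TMM and with DESeq2's own size factors, where 53.3% and 52.2% of all tested genes were called, all 7 pluripotent and all 7 germ cell markers were called lower, and 10 of 14 cardiomyocyte and 8 of 15 mesenchyme markers higher. Of the 7 endothelial markers 1 was then called higher and Pecam1 lower, and 0 of the 2 endoderm markers were called (1 with TMM and 0 with DESeq2 at an unadjusted p under 0.05). With the replicate number as a block 13 cardiomyocyte and 14 mesenchyme markers were called. Both groups held pluripotency markers and some heart muscle markers. In NC the means of the cardiomyocyte markers ran from 0.00809 FPKM (Pln) to 25.4 FPKM (Actc1), with Myh6 at 1.19 and Tnnt2 at 0.985 FPKM. The mesenchyme marker Fn1 stood at -0.02 in log2 fold change with DESeq2's own size factors, and the other tested markers kept their direction in every alternative.

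Other deposited genes of the FGF-ERK pathway mostly rose, opposite to Etv4 and Etv5. Of 166 listed pathway genes 26 were deposited and 23 tested; 20 rose, 2 fell and Fgf11 was not called, beside 62.1% and 35.4% of all tested genes. Among the ligands, Fgf10, a secreted ligand of the IIIb form of Fgfr2, rose 3.56-fold although the groups overlapped: it was at 1.36 FPKM in MF replicate 2 and at 2.10 FPKM in NC replicate 3. Fgf11, an intracellular member of the family that does not signal through these receptors, stood at 0.394 ± 0.087 FPKM in NC and 0.965 ± 0.113 FPKM in MF (SD, n = 3; edgeR adjusted p = 0.0516).

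All 8 deposited receptor and co-receptor genes of 22 rose, where 62.1% of all tested genes did. Their median log2 fold change was 1.43, below the median of 1.62 over the tested genes higher in MF and above that of 1.22 over all tested genes, which go both ways. All 8 stayed higher with TMM and with DESeq2's own size factors, where 3 and 2 of them were called, and without any single library, where 0 (without MF replicate 3, 5 at an unadjusted p under 0.05) to 8 (without MF replicate 2) were called. Fgfr3 stood at 0.518, 0.694 and 0.992 FPKM in NC replicates 1, 2 and 3 and at 3.34, 2.05 and 4.63 FPKM in MF replicates 1, 2 and 3. It rose 4.55-fold (log2 fold change 2.18, SE 0.49; edgeR adjusted p = 0.0149). Fgfr2 rose 2.84-fold, and Fgfrl1, a receptor without a kinase domain, rose 2.16-fold. The heparan sulfate proteoglycans Gpc1, Gpc3 and Sdc2, which hold FGFs near their receptors, rose 2.14, 2.35 and 2.56-fold, with overlapping groups for Gpc3. The calls of Fgfrl1 and Gpc1 were kept without MF replicate 2 and lost without any other single library. Flrt2 rose 4.49-fold and Flrt3, known in Xenopus to promote FGF signalling, rose 2.95-fold. In each of the 8 the lowest MF value was that of replicate 2, whereas for Etv4 and Etv5 it was the highest. The receptors were not alone in this. MF replicate 2 also had the lowest MF sum of cardiomyocyte (169 FPKM) and mesenchyme (341 FPKM) markers. Its sums of pluripotent (234 FPKM) and germ cell (17.5 FPKM) markers were the highest in MF. The share of its counts in deposited genes was 6.18%, where NC had 5.68% to 6.09% and the other MF libraries 9.31% or more. Tnni3, Myl2, Nppb and Foxa1, which also rose, were instead highest in this library.

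Below the receptors, Rps6ka2, a kinase activated by ERK, was the single deposited gene of 43 in the RAS-ERK list, and it rose 2.30-fold. Its call was kept without MF replicate 2 and lost without any other single library (edgeR adjusted p = 0.0589 to 0.108). With TMM its log2 fold change was 0.45 (edgeR adjusted p = 0.261), and with DESeq2's own size factors 0.05 (DESeq2 adjusted p = 0.92). Of 44 genes listed as ERK-responsive, 3 were deposited. Klf2, a naive pluripotency factor that is also in the pluripotent marker list, fell 3.21-fold, from 183 ± 122 to 56.8 ± 21.7 FPKM (SD, n = 3). NC replicate 2 was far above the other NC libraries for Klf2, and without it the difference was 1.98-fold and not called (edgeR adjusted p = 0.0669); the call was also lost without MF replicate 1 (0.0596) or MF replicate 3 (0.0971). Gbx2, a homeobox gene, fell 3.68-fold with overlapping groups, since NC replicate 2 at 1.31 FPKM lay below MF replicate 2 at 2.79 FPKM; with the replicate number as a block it was not called (edgeR adjusted p = 0.107), nor without NC replicate 1 or 3 or MF replicate 1 or 3 (0.0661 to 0.152), and without MF replicate 2 the difference was 5.92-fold. Cdx2, a regulator of posterior development, rose 3.25-fold. Cdx2, Fgf10, Gpc3 and Igf1 each peaked among the controls in NC replicate 3, and without it their differences were 6.03, 6.17, 3.75 and 8.74-fold. The calls of Cdx2, Fgf10 and Gpc3 were lost without NC replicate 1 or 2 or MF replicate 1 or 3, and that of Igf1 without NC replicate 1 or MF replicate 3. Of 35 other receptor tyrosine kinases and ligands 12 were deposited, 9 were tested and all 9 rose, with Pdgfra (10.8-fold), Kdr (5.83-fold), Igf1 and Igf2 (4.82-fold each) the largest; Ret, Ntrk3 and Hgf were below the filter. Pdgfra, Pdgfrb, Kdr and Flt1 of that list also stand in the mesenchyme or endothelial marker lists. Without MF replicate 3 edgeR called 0 of the 23 pathway genes (12 had an unadjusted p under 0.05), without MF replicate 1 or NC replicate 1 it called 10, and without NC replicate 2 it called 13. With TMM it called 10, and DESeq2 with its own size factors called 8.

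**Figure D4:**
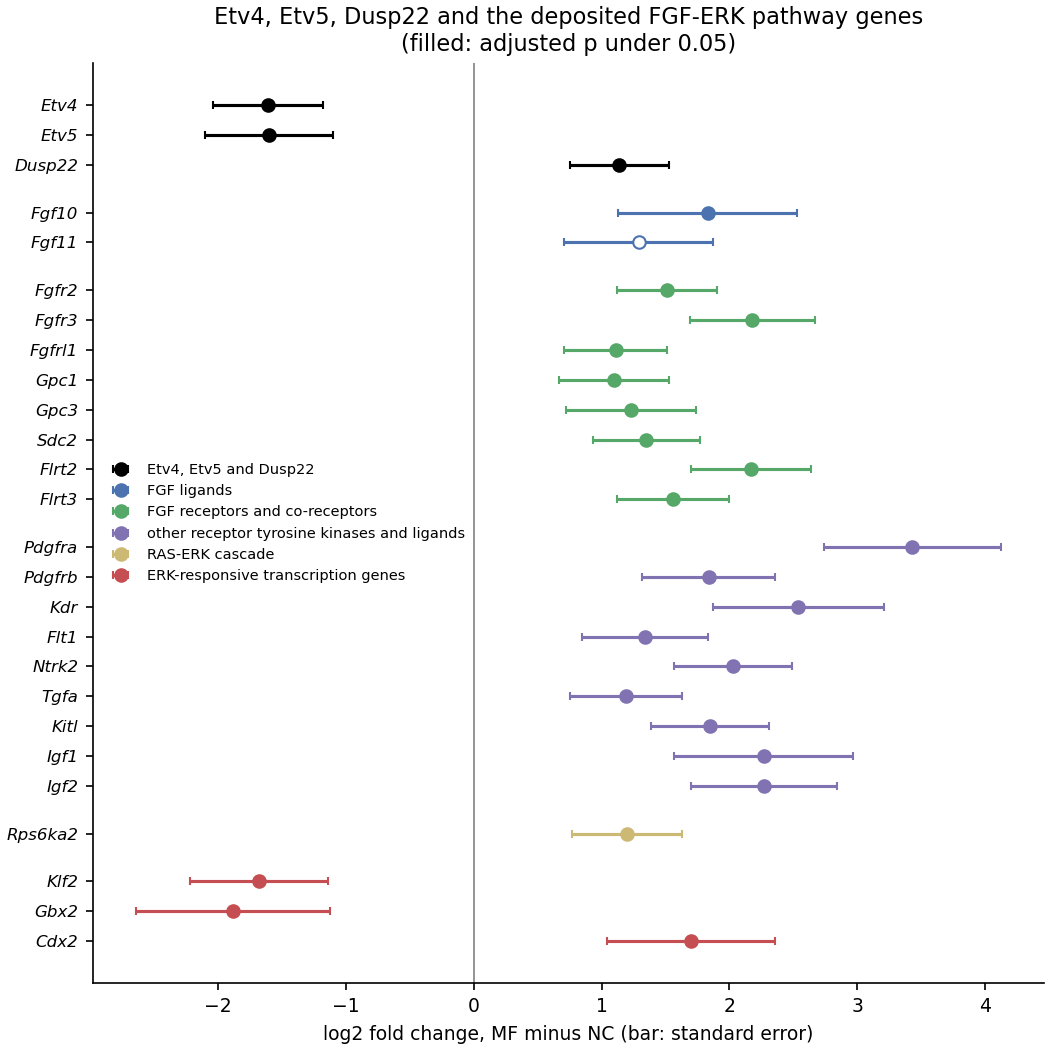
Log2 fold change of MF minus NC with its standard error (edgeR) for Etv4, Etv5, Dusp22 and the 23 tested genes of the FGF-ERK pathway lists, coloured by list; filled symbols have an adjusted p under 0.05. Etv4 (-1.61), Etv5 (-1.60), Klf2 (-1.68) and Gbx2 (-1.88) lie left of 0, and all other genes lie right of it.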

How the data were processed

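Sequencing libraries of poly-A RNA (3 NC, 3 MF) were made per the labels' protocols. The submitters' processing notes name HISAT2 2.0.5, featureCounts and mm10; the sources used here give no counting settings or use of strand. Per the file headers the authors deposited for each of 2031 genes a raw count, FPKM, a normalized signal, and their own comparison with its log2 fold change and p-value, raw and adjusted. In that comparison the largest adjusted p is 0.0499 and the smallest absolute log2 fold change 1.001. Library totals were recovered from count, FPKM and length, and the authors' size factors from count and signal.

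edgeR 4.0.16 (R 4.3.3) was fitted to the counts of the 1651 named genes averaging 0.5 FPKM or more, with the totals as library sizes and group as its term, at an adjusted p of 0.05. The SE is the log2 fold change over the root of F. Rows with no gene name (48) were left out. Tested on simulated data for this comparison (200 of 1651 genes changed), the fit called 164 genes. It recovered 150 of the changed genes, with 14 false calls. Recovery in a table where 97.5% of the tested genes are called, as here, was not tested. All simulated log2 fold changes were larger in size than those of Etv4, Etv5 and Dusp22, so recovery at the sizes of these genes was not tested. No label says that libraries of the same number are pairs. Deviations from group means correlated across genes at 0.39, 0.55 and 0.32 between libraries numbered 1, 2 and 3. On these correlations the numbers served as pairs in the block. NC replicate 3 and MF replicate 1 correlated too (0.54), so the correlations do not single out this pairing. Chi-square per gene between libraries was at least 20.5, so none was a duplicate.

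All genes matching the name rule are named. Pathway genes are named in full for ligands, receptors and the RAS-ERK list, and otherwise up to the 4 with the greatest change. Genes, lists and tests were chosen with earlier results of these data known. Alternatives used limma 3.58.1, DESeq2 1.42.0, other filters and scalings, and fewer libraries.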

Additional observations from a re-analysis of the deposited data

How the results depend on the processing

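The direction of Etv4, Etv5 and Dusp22 held in all 18 alternatives, and the calls held in 15, 13 and 8 of them. Direction could change only where the libraries were scaled otherwise, since the groups did not overlap for any of these genes. Of all tested genes the reported fit called 1610, of Etv4, Etv5 and Dusp22 it called 3, and of the other pathway genes 22. Over the 19069 recovered tests these counts were 0, 0 and 0 (1613, 3 and 22 at an unadjusted p under 0.05), with the replicate block added 504, 2 and 12, and with DESeq2 on the authors' size factors 606, 1 and 11. The last pair of settings was chosen after seeing the data. TMM factors gave 880 (291 higher, 589 lower), 2 and 10, DESeq2 with its own size factors 862 (263 higher, 599 lower), 2 and 8, and a filter at a mean of 2 FPKM 980, 3 and 20, the last with 1034 genes tested. Leaving out 1 library gave 12 to 1578, 0 to 3 and 0 to 22. The replicate block over the tested genes gave 1620, 3 and 22, and among the pathway genes it ended the call of Gbx2 and added Fgf11 alone. Beyond the number of tests and of libraries, which these alternatives change by construction, the cause was not tested. In a library 3 counts, which a count of 0 cannot exclude, are worth 0.156 to 0.201 FPKM for a gene of 1 kb, well under every value of Etv4, Etv5 and Dusp22.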
